A study of Mus musculus with 6 samples.

Results

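The purine and NAD ectoenzymes and receptors are 7 genes whose products act at the cell surface on extracellular ATP, adenosine and NAD: Entpd1, Nt5e, Adora2a, P2rx4, P2rx7, Cd38 and Art2b. They were chosen by gene symbol from a table of 19390 genes, all 7 had a row, and 6 had enough counts to be tested, P2rx7 being the exception. Messenger RNA was sequenced from γδ T cells, the T lymphocytes with an antigen receptor of γ and δ chains, sorted from the spleens of 6-week-old mice. In the 3 KO-labelled libraries the donors were Usf3 f/f; CD2-cre mice, in which the CD2 transgene drives Cre recombinase in lymphoid cells, B cells included. In the 3 WT-labelled libraries they were Usf3 f/f mice without CD2-cre. Both groups thus carry the floxed alleles, and an effect of CD2-cre itself and an effect of the deletion cannot be told apart. The reading of KO and WT as these genotypes rests on the series' design text, and the labels do not say whether the libraries of a group came from separate animals, so p-values measure the spread between these libraries, which may be technical. The comparison asks how Usf3 loss bears on gene expression in γδ T cells, the subject named in the series title.

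ATP released by stressed or dying cells opens the P2X ion channels of T cells, among them P2X4 and the pore-forming P2X7. The ectoenzyme CD39 (Entpd1) strips ATP to AMP and CD73 (Nt5e) turns AMP into adenosine, which acts through the adenosine A2a receptor (Adora2a) and cyclic AMP to restrain T cell activation. Extracellular NAD is consumed by CD38 and is also the substrate of the mouse ADP-ribosyltransferase encoded by Art2b, which modifies P2X7 and opens it without ATP.

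Of these genes, Adora2a was lower in KO-labelled cells, by a small amount, and no other tested gene of the set passed the test. Adora2a fell by 13.7%, to 24.8 ± 0.769 CPM in KO-labelled libraries, against 28.7 ± 1.81 CPM in WT-labelled libraries (SD, n = 3 each). CPM are counts scaled to a common library size. Entpd1, the most abundant of the 7, stood at 65.8 ± 2.13 CPM in KO-labelled and 66.9 ± 0.694 CPM in WT-labelled libraries (SD, n = 3 each). Nt5e and P2rx4 were lower and Cd38 higher in every KO-labelled library than in any WT-labelled one, but none of these differences passed after adjustment. P2rx7 was almost undetected in both groups.

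Across all 12810 tested genes, 17.3% were called changed at an adjusted p under 0.05 (edgeR quasi-likelihood test, Benjamini-Hochberg adjustment over all tested genes), 7.23% higher and 10.1% lower in KO-labelled libraries. Against this background, 1 of the 6 tested genes of the set was called, in the lower direction, a share close to that of all genes. KO-labelled and WT-labelled libraries did not overlap in 4 of the 6, Adora2a, Nt5e, P2rx4 and Cd38, where 32.1% of all tested genes had no overlap. The first 3 of these lay wholly below WT, as did 16.7% of all tested genes, and Cd38 lay wholly above, as did 15.5%. The 6 had a median of -0.092 on the log2 scale, beside 0.0014 over all tested genes.

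Library totals ran from 34644862 to 35806402 counts. Usf3, the targeted gene, had 68.5 ± 3.18 CPM in KO-labelled and 72.2 ± 1.81 CPM in WT-labelled libraries (SD, n = 3 each) and was not called. The labels do not name the floxed exons, so a count over the whole gene does not check the labels. The cell label was set against markers, of which Cd3d, Cd3e, Cd3g and Cd247 were abundant. The γδ T markers with a row were these 4 with Sox13 and Zbtb16. They summed to between 1077 and 1136 CPM in KO-labelled and between 1176 and 1195 CPM in WT-labelled libraries. The first 4 are genes of all T cells, so this sum does not tell γδ T cells from T cells with α and β chains. Sox13 had 3.23 CPM in KO-labelled and 4.36 CPM in WT-labelled libraries, and Zbtb16 had 0.863 and 0.409 CPM. Among markers of αβ T cells with a row, Cd8b1 had 17.8 CPM in KO-labelled and 18.1 CPM in WT-labelled libraries, and Cd4 had 0.463 and 0.522 CPM. Cd3d, Cd3e and Cd3g were called lower in KO. The γδ receptor genes themselves were not analysed here, since those on the list had no row under the names searched. Of 9 monocyte and macrophage markers with a row, 7 had few counts, at most 14 in any library (Lyz2 in WT replicate 2), while Cd68 had 208 to 234 counts in KO-labelled and 253 to 326 counts in WT-labelled libraries and Ccr2 was abundant. Over all lists of other cell types, natural killer (NK) cells included, 52 markers had a row and summed to between 1116 and 1208 CPM in KO-labelled and between 1097 and 1158 CPM in WT-labelled libraries. Of the 20 tested, 1 was higher, Ccr2, and 5 were lower, Cd68, Batf3, Blk, Pecam1 and the NK marker Ncr1. Over all tested genes, 7.23% were higher and 10.1% lower. The NK list and Ccr2, Xbp1 and Pecam1, which T cells also express, were then left out, a choice made after their values were seen. The remaining 44 markers summed to between 58.3 and 62.4 CPM in KO-labelled and between 65.1 and 68.2 CPM in WT-labelled libraries. They still include the αβ T markers Cd8b1 and Cd4, so this sum is not a level of cells other than T cells. The part of other cell types in the results below was not tested.

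**Figure D1:**
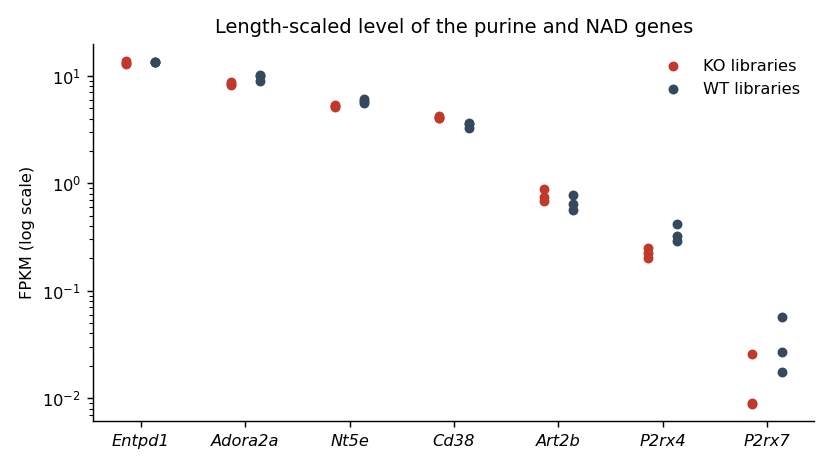
FPKM on a log scale for each gene in each library, KO-labelled libraries left and WT-labelled libraries right within a gene, genes ordered by mean level. Entpd1 is highest at 12.9 to 13.7 FPKM and P2rx7 lowest at 0.0089 to 0.057 FPKM, and no gene's range over the 6 libraries overlaps that of its neighbour.

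Levels between genes were compared per length, as FPKM, the authors' counts scaled to gene length and library total. Entpd1 ranged over the 6 libraries from 12.9 to 13.7 FPKM, Adora2a from 8.17 to 10.2, Nt5e from 5.15 to 6.13 and Cd38 from 3.24 to 4.25 FPKM. Art2b followed at 0.562 to 0.880 FPKM, P2rx4 at 0.201 to 0.422 FPKM and P2rx7 at 0.0089 to 0.057 FPKM. The order of the 7 genes was thus the same in every library, and the ranges of neighbours did not overlap. By mean FPKM, Entpd1 ranked 4465 and Adora2a 5557 among the 12810 tested genes, near the middle of the expressed genes, whereas Art2b and P2rx4 ranked 10362 and 11382. The transcripts of the adenosine branch, the hydrolases that make adenosine and the receptor that reads it, were therefore well above those of the ATP-gated channels in both groups. In a bulk sample, fewer cells that express a gene and less RNA per cell cannot be told apart.

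**Figure D2:**
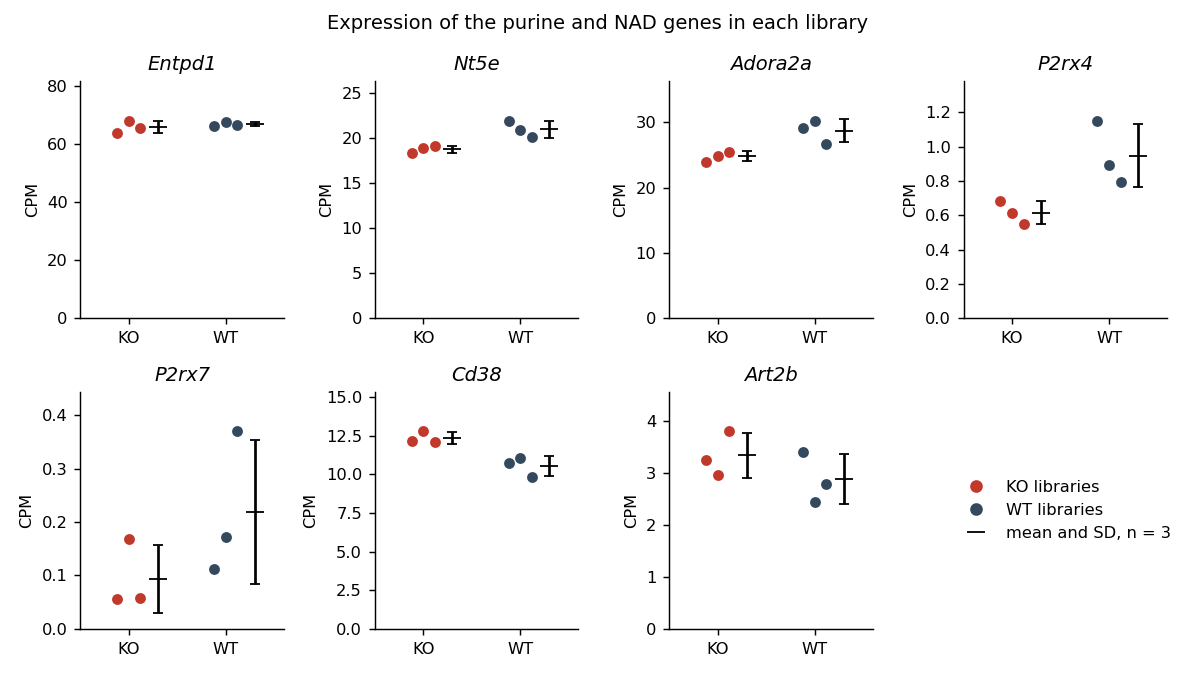
CPM of each gene in each library, 3 KO-labelled libraries (red) left of 3 WT-labelled libraries (dark), with the mean and SD of each group (n = 3) beside the points; every axis starts at 0. Adora2a, Nt5e and P2rx4 lie lower in all KO-labelled libraries, Cd38 lies higher, and Entpd1, Art2b and P2rx7 overlap.

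The hydrolases of extracellular ATP come first in the pathway. Entpd1 encodes CD39, the cell-surface enzyme that removes phosphates from ATP and ADP. It had 63.8, 68.1 and 65.5 CPM in KO replicates 1, 2 and 3, against 66.4, 67.7 and 66.7 CPM in WT replicates 1, 2 and 3. The WT-labelled values lay inside the KO-labelled range. The log2 fold change was -0.024 ± 0.042 (SE), and its 95% interval ran from a change of -7.37% to one of 4.40%, so changes larger than these lay outside the interval (edgeR adjusted p = 0.762). With 6960 counts in KO-labelled and 7062 in WT-labelled libraries, the coefficient of variation was 3.24% in KO-labelled and 1.04% in WT-labelled libraries, beside 2.08% and 2.06% from counting error.

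Nt5e encodes CD73, the enzyme that completes the conversion of AMP to adenosine. It had 18.3, 18.8 and 19.1 CPM in KO replicates 1, 2 and 3, against 21.9, 20.9 and 20.1 CPM in WT replicates 1, 2 and 3. Every KO-labelled library lay below every WT-labelled one, WT replicate 3 being the nearest. The log2 fold change was -0.16 ± 0.069 (SE), a difference of -10.5% with a 95% interval from -18.9% to -1.28% before adjustment, and the adjusted p was 0.119 (edgeR).

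Adora2a encodes the adenosine A2a receptor, which couples to the stimulatory G protein and raises cyclic AMP. It had 24.0, 24.9 and 25.5 CPM in KO replicates 1, 2 and 3, against 29.2, 30.3 and 26.7 CPM in WT replicates 1, 2 and 3. The groups did not overlap, and WT replicate 3 was the WT-labelled library nearest to KO. The log2 fold change was -0.21 ± 0.063 (SE), with a 95% interval from -21.2% to -5.42% (edgeR adjusted p = 0.0219). The means differed by more than the SD of either group. Leaving out KO replicate 1, WT replicate 1 or WT replicate 2 ended the call, at an edgeR adjusted p of 0.0947, 0.0788 and 0.120, while the direction stayed the same.

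**Figure D3:**
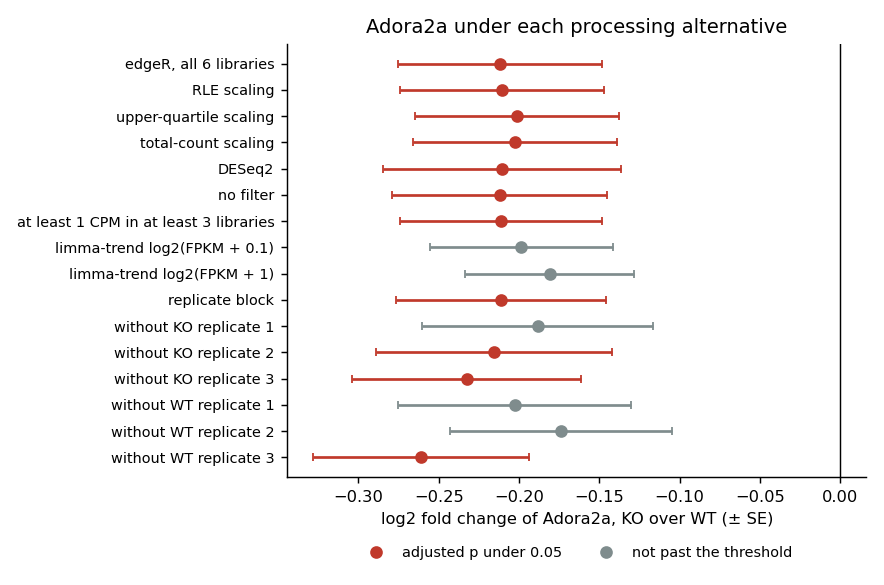
Log2 fold change of Adora2a, KO over WT, with its SE, for the edgeR fit of all 6 libraries and for 15 processing alternatives. Every estimate is below 0, between -0.26 and -0.17, and 10 of the 15 alternatives keep the adjusted p under 0.05 (red).

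The ATP-gated channels were scarce. P2rx4, the gene of a fast cation channel that responds to low ATP, had 24, 22 and 19 counts in KO replicates 1, 2 and 3, against 41, 31 and 28 counts in WT replicates 1, 2 and 3. Its levels were 0.615 ± 0.068 CPM in KO-labelled and 0.947 ± 0.184 CPM in WT-labelled libraries (SD, n = 3 each). All KO-labelled libraries were below all WT-labelled ones. The log2 fold change of -0.62 ± 0.363 (SE) was the largest in size among the 6 tested genes, but it rested on 65 and 100 counts in all, its interval ran from -61.4% to 9.70%, and it was not called (edgeR adjusted p = 0.280).

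P2rx7, the gene of the channel that ATP and ADP-ribosylation open on mouse T cells, had 2, 6 and 2 counts in KO replicates 1, 2 and 3, against 4, 6 and 13 counts in WT replicates 1, 2 and 3. The groups overlapped, and 13 of the 23 WT-labelled counts came from replicate 3. P2rx7 was below the low-count filter, so it was not tested, and a difference between 10 and 23 counts in all was not resolved. Tested without a filter, its log2 fold change was -1.18 ± 0.867 (SE, edgeR adjusted p = 0.493). In the GRCm38 annotation P2rx7 and P2rx4 are neighbours on chromosome 5, on the same strand.

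The NAD-consuming enzymes had estimates above 0, and neither passed the test. Cd38 encodes the ectoenzyme that hydrolyses NAD and makes cyclic ADP-ribose. It had 12.2, 12.8 and 12.1 CPM in KO replicates 1, 2 and 3, against 10.7, 11.1 and 9.81 CPM in WT replicates 1, 2 and 3. All KO-labelled libraries were above all WT-labelled ones. The log2 fold change was 0.23 ± 0.090 (SE), a difference of 17.3% with a 95% interval from 3.03% to 33.5% before adjustment, and the adjusted p of 0.0864 did not pass (edgeR). Cd38 was a larger difference in percent than Adora2a, from fewer counts, 1307 in KO-labelled and 1112 in WT-labelled libraries. An antisense gene, Gm16015, overlaps Cd38 in the GRCm38 annotation and had at most 1 count in any library.

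Art2b, the gene of the glycolipid-anchored ADP-ribosyltransferase of mouse T cells, had 114, 106 and 132 counts in KO replicates 1, 2 and 3, against 121, 85 and 98 counts in WT replicates 1, 2 and 3. The groups overlapped, with WT replicate 1 above KO replicates 1 and 2 as CPM. The log2 fold change was 0.21 ± 0.196 (SE), with a 95% interval from -12.7% to 53.5% (edgeR adjusted p = 0.532), which holds a change of the size seen in Cd38. Art2b shares 5.70% of its 50-base words with transcripts of other genes in GENCODE M21, most often with Art2a-ps, and reads from those stretches may have been split or dropped in counting. The other 6 genes share at most 1.36%.

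**Figure D4:**
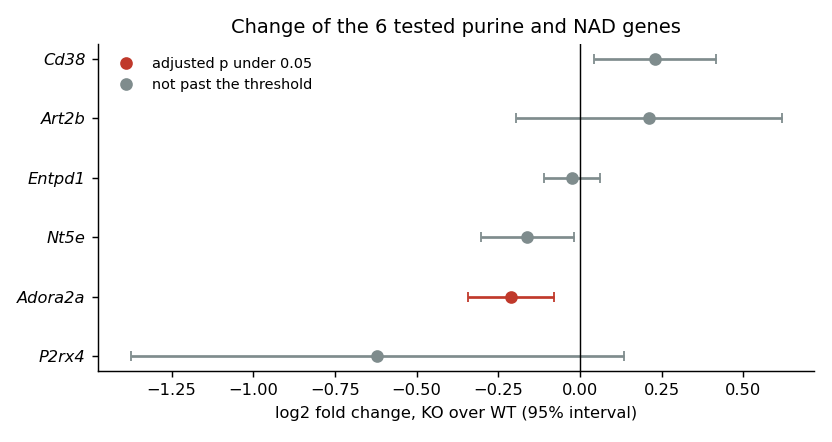
Log2 fold change, KO over WT, of the 6 tested genes with 95% intervals of the edgeR fit, before adjustment for the number of genes tested. Adora2a (red, -0.21) is the gene with an adjusted p under 0.05; Cd38 (0.23) and Nt5e (-0.16) have intervals that leave out 0 but did not pass adjustment.

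Promoter windows were available for 6 of the 7 genes, in the RefSeq table for GRCm38.p6, Adora2a having no entry. Usf3 belongs to the basic helix-loop-helix leucine zipper family, whose better known members bind the E-box CACGTG, so the windows were searched for that palindrome. None of the 8 windows of these 6 genes held CACGTG, which 7.15% of all 32851 windows of the same length hold. The looser E-box CANNTG, also a palindrome and so read on both strands at once, is in 72.3% of all windows. It occurred in Nt5e at 1 place, in Cd38 at 3 and in P2rx4 at 1. Genes whose groups overlapped held it too, Art2b at 1 place, Entpd1 at 2 and 0 in its windows and P2rx7 at 4 and 2. The windows of Nt5e, Cd38 and P2rx4, whose KO-labelled and WT-labelled libraries did not overlap, are shown with each CANNTG in capitals. They run from 250 bases before to 50 bases after the annotated start. A match is only a run of letters, and no binding was measured here.
Nt5e, chr9:88327359-88327658, plus strand: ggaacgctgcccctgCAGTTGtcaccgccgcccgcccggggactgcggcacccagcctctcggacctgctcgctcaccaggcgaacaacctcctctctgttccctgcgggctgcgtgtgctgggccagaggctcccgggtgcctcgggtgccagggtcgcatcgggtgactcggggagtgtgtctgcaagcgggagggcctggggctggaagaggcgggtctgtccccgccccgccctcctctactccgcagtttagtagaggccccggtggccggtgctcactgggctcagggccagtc
Cd38, chr5:43868559-43868858, plus strand: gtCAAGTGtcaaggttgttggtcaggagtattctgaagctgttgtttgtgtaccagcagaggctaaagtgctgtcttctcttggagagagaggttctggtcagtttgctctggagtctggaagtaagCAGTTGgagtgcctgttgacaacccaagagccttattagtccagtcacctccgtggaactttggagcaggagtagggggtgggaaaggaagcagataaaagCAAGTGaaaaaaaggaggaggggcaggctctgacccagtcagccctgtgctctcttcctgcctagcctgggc
P2rx4, chr5:122707294-122707593, plus strand: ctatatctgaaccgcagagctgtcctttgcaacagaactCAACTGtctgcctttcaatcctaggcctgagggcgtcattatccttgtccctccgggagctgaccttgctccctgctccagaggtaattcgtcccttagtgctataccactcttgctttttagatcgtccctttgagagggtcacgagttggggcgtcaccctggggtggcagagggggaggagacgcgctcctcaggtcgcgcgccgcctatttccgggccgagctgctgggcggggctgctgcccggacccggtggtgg
The Nt5e window had a GC content of 71.0% with 23 CpG dinucleotides and the Cd38 window 51.7% with 1, where the median window of the table has 52.7% and 7. The P2rx4 window lay between them at 60.3% and 18.

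Other genes of the pathway were read from 8 lists. Of 77 genes tested in them, 7 were higher and 13 lower, or 26.0%, beside the 17.3% of all tested genes. The lists were chosen with earlier results of these data known, so this share is not read as a result about the pathway. The median log2 fold change over the 77 was -0.033.

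**Figure D5:**
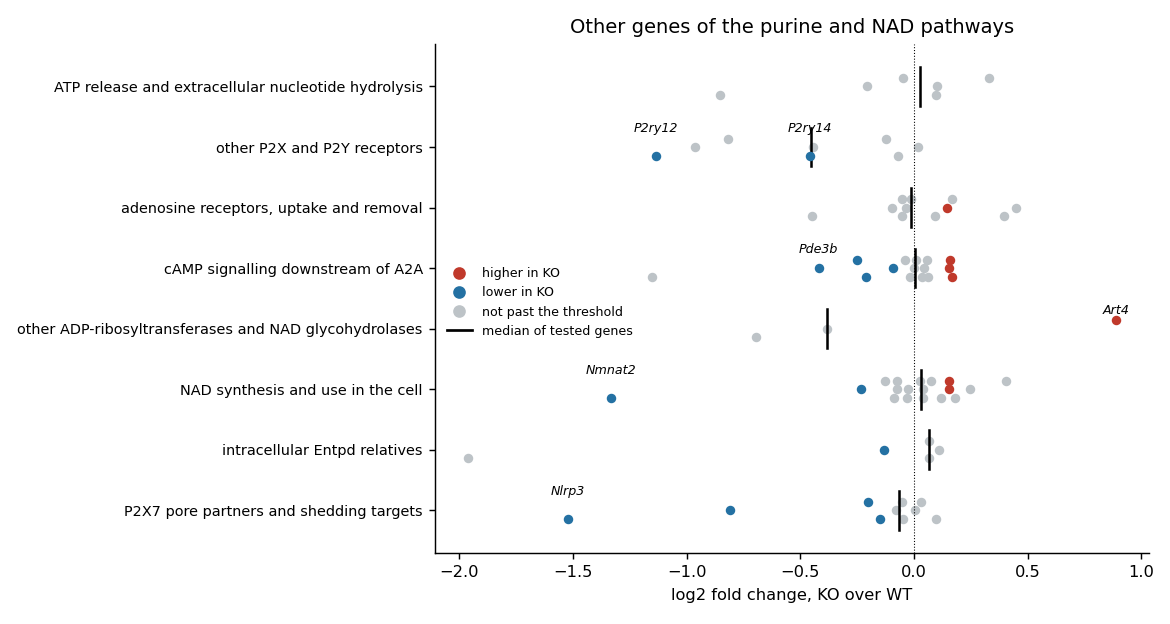
Log2 fold change, KO over WT, of each tested gene in 8 lists of the purine and NAD pathways, with genes called higher in KO in red, called lower in blue and not past the threshold in grey; the black bar is the list's median. P2ry12, Nmnat2 and Nlrp3 lie farthest to the left among the called genes and Art4 (0.89) farthest to the right.

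Among the other P2X and P2Y receptors, 2 of 8 tested genes were lower and 0 higher, with a median log2 fold change of -0.45. That median rests in part on genes with few counts, and a filter of 1 CPM in 3 libraries leaves 4 of the 8. It lies between P2ry14 and P2rx1, the latter named after its value was seen. P2rx1 had 50 counts in KO-labelled and 68 in WT-labelled libraries (log2 fold change -0.45 ± 0.412, SE, edgeR adjusted p = 0.527). P2ry14, the receptor gene for UDP-glucose, had 96.2 CPM in KO-labelled and 132 CPM in WT-labelled libraries, a log2 fold change of -0.46 ± 0.034 (SE, edgeR adjusted p = 5.41e-10), and it stayed past the threshold in all 15 alternatives. P2ry12, the ADP receptor gene best known from platelets and microglia, had 26, 34 and 25 counts in KO-labelled and 85, 47 and 55 counts in WT-labelled replicates 1, 2 and 3 (log2 fold change -1.14 ± 0.317, SE, edgeR adjusted p = 0.0142). Its call was lost when KO replicate 1 or WT replicate 1 was left out (adjusted p = 0.0571 and 0.131). P2ry10, a lysophospholipid receptor gene named after its value was seen, was not called at 108 CPM in KO-labelled and 113 CPM in WT-labelled libraries, but was called lower without KO replicate 2 (adjusted p = 0.0468).

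Among genes for sensing, taking up and removing adenosine, 1 of 11 tested was higher and 0 lower, with a median log2 fold change of -0.014. Ahcy, the enzyme that splits S-adenosylhomocysteine into adenosine and homocysteine, rose by 0.14 ± 0.030 on the log2 scale (SE, edgeR adjusted p = 0.00136). Adora2b, the low-affinity adenosine receptor gene, had 84, 88 and 108 counts in KO-labelled and 131, 134 and 117 counts in WT-labelled replicates 1, 2 and 3. Its groups did not overlap, but its log2 fold change of -0.45 ± 0.190 (SE) did not pass (edgeR adjusted p = 0.116). Adora3, a receptor gene that lowers cyclic AMP, was not called at -0.055 ± 0.147 (SE). The adenosine deaminase gene Ada, Dpp4 (CD26) and the adenosine kinase gene Adk were not called either, at -0.054, -0.097 and 0.17 on the log2 scale. Adora2b, Adora3, Ada, Dpp4 and Adk were chosen for their role after their values were seen.

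Genes that make, carry and break down the cyclic AMP signal were called in both directions, 3 higher and 4 lower of 16 tested, around a median of 0.0049 on the log2 scale. The phosphodiesterase genes, which degrade cyclic AMP, split. Pde3b and Pde7a fell by 0.42 ± 0.030 and 0.21 ± 0.039 on the log2 scale (SE, edgeR adjusted p = 3.27e-10 and 0.000346), and Pde4d rose by 0.15 ± 0.041 (SE, edgeR adjusted p = 0.00945). Crem, a transcription factor gene that answers to cyclic AMP, fell by 0.25 ± 0.063 (SE, edgeR adjusted p = 0.00613). The others called, named after their values were seen, were Pde4b at 0.17, the protein kinase A subunit gene Prkaca at 0.16 and the adenylyl cyclase gene Adcy7 at -0.091. Pde3b and Pde7a were called in all 15 alternatives. Without WT replicate 1, Pde4d (adjusted p = 0.0606), Pde4b (0.0951), Prkaca (0.0741) and Crem (0.0714) lost their calls, so that 0 genes of the list were higher and 3 lower. Without KO replicate 2, 1 gene was higher and 4 lower. Adcy7 was called in 8 of 15 alternatives and lost its call without KO replicate 1, WT replicate 2 or WT replicate 3 (adjusted p = 0.0874, 0.209 and 0.0545), with limma, and under upper-quartile and total-count scaling. Prkaca was called in 11 of 15 and Pde4b in 10 of 15. Gnas, the stimulatory G protein gene that couples to the receptor, was not called at 0.046 ± 0.023 (SE, edgeR adjusted p = 0.203), also named after its value was seen.

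Among the other ADP-ribosyltransferases and NAD glycohydrolases, 1 of 3 tested was higher and 0 lower, around a median of -0.38 on the log2 scale. That median is the value of Sarm1, named after it was seen. Sarm1 had 36 counts in KO-labelled and 47 in WT-labelled libraries and was not called (-0.38 ± 0.494, SE, edgeR adjusted p = 0.670). Art4, an ADP-ribosyltransferase family gene that carries the Dombrock blood group in humans, had 163, 159 and 148 counts in KO-labelled and 83, 78 and 92 counts in WT-labelled replicates 1, 2 and 3. Its groups were far apart, and its log2 fold change of 0.89 ± 0.178 (SE, edgeR adjusted p = 0.000847) passed in all 15 alternatives. Bst1 (CD157), the paralog and neighbour of Cd38, had 34, 16 and 19 counts in KO-labelled and 43, 29 and 40 counts in WT-labelled replicates 1, 2 and 3, with overlapping groups, and was not called (log2 fold change -0.70 ± 0.379, SE, edgeR adjusted p = 0.240). Bst1 was named after its value was seen.

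Genes of NAD synthesis and use inside the cell were higher in 2 and lower in 2 of 18 tested, with a median log2 fold change of 0.031. Nampt, the rate-limiting enzyme of NAD salvage, had 121 CPM in KO-labelled and 142 CPM in WT-labelled libraries (log2 fold change -0.24 ± 0.037, SE, edgeR adjusted p = 5.88e-05). Parp1, a nuclear enzyme that spends NAD on poly-ADP-ribose, and Slc25a51, the mitochondrial NAD carrier, both rose by 0.15 on the log2 scale (edgeR adjusted p = 0.000357 and 0.00863). The calls of Nampt, Parp1 and Slc25a51 held in all 15 alternatives. Nmnat2, an NAD-synthesising enzyme best known from axons, had 7, 8 and 13 counts in KO-labelled and 25, 23 and 23 counts in WT-labelled replicates 1, 2 and 3. It was called lower (log2 fold change -1.33 ± 0.446, SE, edgeR adjusted p = 0.0416) but kept the call in 4 of 14 alternatives. Leaving out any library but KO replicate 3 ended it, at an adjusted p of 0.0913 to 0.145.

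Of the P2X7 partners and shedding targets, 4 of 10 tested genes were lower and 0 higher, and the list median was -0.068 on the log2 scale. The inflammasome genes Nlrp3, Casp1 and Pycard encode the sensor, protease and adaptor. They fell by 1.52 ± 0.253, 0.20 ± 0.049 and 0.15 ± 0.046 on the log2 scale (SE, edgeR adjusted p = 0.000109, 0.00466 and 0.0286). Nlrp3 had few counts, 32, 42 and 51 in KO-labelled and 116, 149 and 94 in WT-labelled replicates 1, 2 and 3. Gsdmd, of the same list and named after its value was seen, was not called at -0.055 ± 0.054 (SE, edgeR adjusted p = 0.554). The Pycard call was lost without KO replicate 2, WT replicate 1 or WT replicate 2 (adjusted p = 0.138, 0.139 and 0.0813). The sheddase genes Adam10 and Adam17 were not called, at -0.047 and 0.030 on the log2 scale, and were named after their values were seen. Without KO replicate 2, Adam10 was called lower, at -0.10 (adjusted p = 0.0482).

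Among genes for ATP release and other surface nucleotide hydrolysis, 0 of 6 tested were called in either direction by edgeR, and 0 had an unadjusted p under 0.05. DESeq2 and limma also called 0. Panx1, the ATP-release channel gene, had 48.6 CPM in KO-labelled and 50.2 CPM in WT-labelled libraries and was named after its value was seen. Acpp, the gene of an acid phosphatase that can also make adenosine from AMP, had the smallest p (log2 fold change 0.097 ± 0.050, SE, edgeR adjusted p = 0.209). Of 5 tested intracellular relatives of Entpd1, 0 were higher and 1 lower, Cant1, a nucleotidase gene of the secretory pathway (log2 fold change -0.13 ± 0.045, SE, edgeR adjusted p = 0.0473). Cant1 was called in 4 of 15 alternatives. It was lost, at an adjusted p of 0.106 to 0.205, without KO replicate 1, KO replicate 2, WT replicate 1 or WT replicate 2. Entpd4 and Entpd4b, which share 100% of their 50-base words, had 5, 4 and 121 counts and 27, 10 and 16 counts in KO replicates 1, 2 and 3, against 11, 9 and 6 counts and 7, 181 and 18 counts in WT replicates 1, 2 and 3. Their counts cannot be assigned to either copy and no change is read from them, although Entpd4b passed the test without KO replicate 3, WT replicate 1 or WT replicate 3 (adjusted p = 0.0197, 0.0110 and 0.0257).

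By the shape of their values over the 6 libraries, the genes most like each of the 6 were taken as those with the smallest root mean square difference of centred log2 CPM, among tested genes of at least 10 CPM. Nearest to Adora2a were Phc1, a Polycomb gene (0.018), and Junb, an AP-1 transcription factor gene (0.027). Nearest to Nt5e were Tex264 and Ubac2 (0.019 and 0.020), and nearest to Cd38 were Pidd1 and Myo10 (0.023 and 0.031). Entpd1, which varied little, was nearest to Chd2 and Copg1 (0.0098 and 0.012). For the low-count genes the nearest neighbours were farther, H2-Q6 and Rora for P2rx4 (0.123 and 0.125) and Snapc2 and Skp2 for Art2b (both 0.104). With 6 libraries in 2 groups these distances are descriptive only.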

How the data were processed

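Per the labels' protocols, TRIzol RNA went into VAHTS Universal V6 libraries. The submitters' processing notes name fastp, HISAT2, HTSeq and GRCm39; their versions, the annotation and strand use are not given there. The deposited counts are whole numbers per gene symbol in 6 columns, matched to libraries by title. The deposited FPKM equal these counts over the column total and 1 fixed length per gene (within 0.01 bp in 19390 genes), and served to compare levels between genes and as an alternative.

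The test was that of edgeR 4.0.16 (R 4.3.3) with TMM factors, filterByExpr, glmQLFit and glmQLFTest on the label, in all 6 libraries. The SE is the log2 fold change, without its sign, divided by the root of F, and CPM use TMM-scaled library sizes. After filtering 12810 genes remained, without 0.0366% of all counts. The biological coefficient of variation was 4.16%. Alternatives were 3 other scalings, DESeq2 1.42.0, 2 filters, limma 3.58.1 on log2 FPKM with pseudocounts of 0.1 and 1, a replicate block and each library left out, 15 in all. Libraries of a label differed beyond sampling noise (chi-square over degrees of freedom 3.26 to 7.19, between labels 15.1 to 17.3), so none was counted as a repeat sequencing of another. These values cannot tell separate animals from separate preparations of the same RNA.

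The 7 genes and the lists were chosen with earlier results of these data known. From each list the text names up to 4 called genes by smallest p, or the gene with the smallest p where none was called; others are said to be chosen after their values were seen. In the P2X7 partner list, 1 called gene is counted but not reported here by name. Shared 50-base words, overlaps and neighbours come from GENCODE M21 (GRCm38), promoter windows from RefSeq for GRCm38.p6, matched by symbol. Since that build differs from the authors', no other coordinates are given. Scripts were tested on simulated counts.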

Additional observations from a re-analysis of the deposited data

How the results depend on the processing

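Adora2a stayed lower in all 15 alternatives and past the threshold in 10. It missed with limma on log2 FPKM, at a log2 fold change of -0.20 (pseudocount 0.1, adjusted p = 0.0576) and -0.18 (pseudocount 1, adjusted p = 0.0651), so that 0 of the 6 tested genes were called there. With 1 library left out its log2 fold change ran from -0.26 to -0.17, and 0 to 1 of the 6 were called. Entpd1, Nt5e, Cd38, P2rx4 and Art2b kept their direction and were called in no alternative that tests them, with lowest adjusted p of 0.532, 0.109, 0.0681, 0.117 and 0.368 and highest of 0.982, 0.327, 0.272, 0.560 and 0.821.

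Of the 20 called genes in the lists, 11 were called in every alternative. With limma at either pseudocount the cyclic AMP list had 1 gene higher and 2 lower. In the list of NAD synthesis and use, 1 gene instead of 2 was lower under DESeq2, no filter, the filter of 1 CPM in 3 libraries, limma at either pseudocount and the replicate block. Among the Entpd relatives, 0 were lower under DESeq2, under scaling by RLE, total count or upper quartile, limma at either pseudocount and the replicate block. Without a filter, 1 was higher, Entpd4, and 2 were lower, Entpd4b and Cant1, and 1 gene of the ATP release list, Alpl, was higher. With 1 library left out, the genes called lower were 1 to 3 in the P2X and P2Y list, 3 to 4 in the cyclic AMP list, 1 to 2 in the NAD list and 0 to 2 among the Entpd relatives, and 0 to 3 cyclic AMP genes were higher. The cause was not tested.

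Over all tested genes, 649 to 1000 were higher and 1021 to 1342 lower with 1 library left out. Same-numbered libraries had correlations of -0.031, -0.039 and -0.13 in their deviations from the group means. Those of differently numbered libraries ran from -0.067 to 0.11. With 3 libraries a group, these values cannot settle whether the replicate numbers pair the libraries. With the replicate number as a block, 792 genes were higher and 1177 lower, and Adora2a kept its call (log2 fold change -0.21, adjusted p = 0.0404).

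For P2rx7, P2rx4 and Art2b the counting error alone was 9.23% or more in each group. In Art2b it was 9.23% in KO-labelled and 9.93% in WT-labelled libraries, below the coefficients of variation of 12.8% and 16.8%. Whether depth limited these genes was not tested.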

Other observations

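Of the genes below the low-count filter in the lists, 2 had counts in every KO-labelled library and 0 in every WT-labelled one. Both were noticed after their values were seen. The share of all genes below the filter with this pattern was not counted, so nothing is read from it. Alpl, the tissue-nonspecific alkaline phosphatase gene, whose product can also strip phosphates from extracellular nucleotides, had 3, 6 and 3 counts in KO replicates 1, 2 and 3, against 0, 0 and 0 in WT replicates 1, 2 and 3. P2rx5, an ATP-gated channel gene, had 2, 2 and 4 counts in KO replicates 1, 2 and 3, against 0, 0 and 0 in WT replicates 1, 2 and 3. Tested without a filter, Alpl had an adjusted p of 0.0476 and P2rx5 one of 0.128 (edgeR). No fold is given at counts this low.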
